A study of Danio rerio with 6 samples.

Results

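In thrombocytes sorted from zebrafish larvae, 36 of the 32520 genes in the count table were lower by at least 2 times in every library that overexpressed miR-150 than in any control library. A gene was taken when its smallest level among the 3 controls was at least 5 CPM (the gene's count as a share of the library's total count, scaled to 1000000) and at least 2 times its largest level among the 3 miR-150 libraries. The genes were thus chosen by the very contrast described below, so their differences between the groups are a description of these 6 libraries and are given without a test. Of the 36, 34 had a symbol and 21 encode proteins of chromosome segregation, the spindle, cytokinesis, the centriole or DNA replication and repair. These roles were assigned once the members were named, and the share of such genes among all genes is not given here. The sum of these 21 genes was 463, 504 and 423 CPM in control replicates 1, 2 and 3, and 132, 22.7 and 45.9 CPM in miR-150 replicates 1, 2 and 3. In bulk RNA, fewer dividing cells and less of these transcripts per cell cannot be told apart. The libraries also differed in RNA from other tissues, and its part in these levels was not tested. With levels taken relative to a list of thrombocyte marker genes, 10 of the 36 still met the rule. The most abundant of the 36 was MTA2, a subunit of a chromatin repressor complex, and another was p2rx1, the ATP-gated channel of platelets.

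Thrombocytes are nucleated blood cells that stop bleeding in fish, as platelets do in mammals. Every larva carried the transgene -6.0itga2b:EGFP, in which the promoter of the thrombocyte integrin gene itga2b drives a green fluorescent protein. Controls carried with it -6.0itga2b:tagRFP, which adds a red protein, and the miR-150 group carried -6.0itga2b:miR-150-tagRFP, which adds the microRNA miR-150 as well. All larvae were kept in 0.003% (w/v) of the pigment blocker 1-phenyl 2-thiourea from between 24 and 30 hours after fertilization, and cells bearing both colours were sorted at 5 days. Each group had n = 3 libraries, numbered as biological replicates in the titles. Because the promoter marks every cell that expresses itga2b, thrombocyte precursors that still divide can be among the cells sorted. The labels do not say how many larvae were pooled or whether the replicates came from separate clutches.

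Many of the genes that cell division runs on, though not all, are transcribed together late in the cell cycle. Cyclin-dependent kinase 1 starts mitosis, condensins compact the chromosomes, the spindle checkpoint holds the cell until every chromosome is attached, and motor proteins at the midzone build the site where the cell is cut. MicroRNAs such as miR-150 pair with messenger RNAs and lower their level or translation, and the transcription factor gene MYB is its best known target in blood cells of mammals.

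Library totals ran from 12972258 to 22150519 counts, so that 3 counts, taken here as the floor of detection, stand for 0.135 to 0.231 CPM. Counting intervals and floors cover counting error only. The libraries differed in what else they held. The 26 symbols of the thrombocyte marker list matched 16 identifiers. These summed to 12701, 9841 and 9515 CPM in control replicates 1, 2 and 3. In miR-150 replicates 1, 2 and 3 they summed to 10759, 8849.9 and 2705 CPM, so the last library held the least. One of them, itga2b, held 5727 of the 12701 CPM in control replicate 1 and 1052 of the 2705 CPM in miR-150 replicate 3. The eye marker list, led by lens crystallin genes, summed to 121, 826 and 46.3 CPM in the controls and 593, 39762 and 60951 CPM in the miR-150 libraries. In miR-150 replicates 2 and 3, 17.9% and 26.6% of counts fell on 114 genes that were each at least 8 times lower in all remaining libraries, where they took at most 0.276%. Within the eye list CRYBB1 held 17079 and 30579 CPM in those 2 libraries and opn1lw1 and PDE6H were at 0 in all 6. Over 14 marker lists the smallest exact two-sided permutation p was 0.1, the least that 3 against 3 libraries allow, for the progenitor list (lower in miR-150 libraries) and the pancreas and gut list (higher), with a Benjamini-Hochberg adjusted p of 0.467 for both. The part that foreign RNA and composition had in the levels below was not tested, but values under other scalings are given beside them.

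itga2b, the gene whose promoter defines the sort, was at 5727, 4194 and 4002 CPM in the controls and 5384, 4002 and 1052 CPM in the miR-150 libraries, and the groups overlapped. P2RY12, the gene of the ADP receptor P2Y12 that the series title names, had 0 counts in all 6 libraries, which allows up to 0.135 to 0.231 CPM per library. MYB was at 88.9, 34.7 and 63.8 CPM in control replicates 1, 2 and 3 and 18.6, 20.4 and 5.90 CPM in miR-150 replicates 1, 2 and 3. Its groups did not overlap, but its smallest control was 1.70 times its largest miR-150 library, so it was not among the 36.

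The rule took 0.478% of the 7528 genes with at least 5 CPM in every control. With the groups exchanged it took 83 genes, or 1.13% of 7348. Just inside the ratio of 2 lay znfl2a at 2.03, SETD1B at 2.05 and drll.1 at 2.07, and just outside lay FBXW2 at 1.98, mbd2 at 1.97 and B3GLCT at 1.97. Just inside the level of 5 CPM lay bub1ba at 5.42, RAD1 at 5.65 and ARHGAP11A at 6.52, and just outside lay gtse1 at 4.93, maptb at 4.86 and ccnb3 at 4.56. The count depended on each library. It was 268, 81 and 77 without control replicate 1, 2 or 3, and 223, 102 and 56 without miR-150 replicate 1, 2 or 3. Leaving a library out can only raise the count, as fewer have to meet the condition. The rise was largest without replicate 1 of either group. All 36 passed the low-count filter of the test over all genes. That test, edgeR's quasi-likelihood test, called 0 of 15722 genes (0%) at a Benjamini-Hochberg adjusted p below 0.05. At an unadjusted p below 0.05 it held 855 genes (5.44%). Of these, 130 were lower in miR-150 libraries (0.827%), with 21 of the 36 among them. DESeq2 called 25 lower genes of the 15127 it adjusted (0.165%), with 10 of the 36 among them. As the same contrast chose the 36, nothing is read from these shares.

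**Figure D1:**
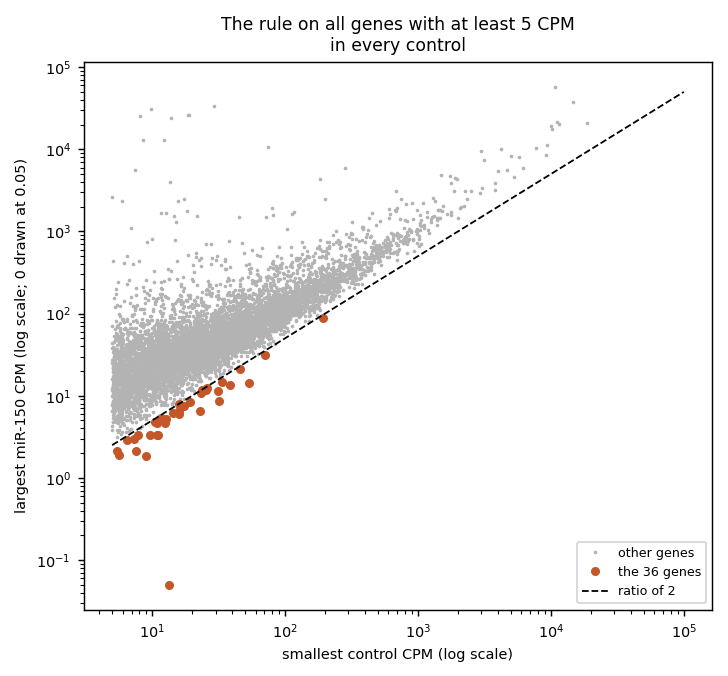
Smallest control CPM against largest miR-150 CPM for the 7528 genes with at least 5 CPM in every control, both on log scales, 1 point per gene. The 36 genes (orange) lie below the dashed line of a ratio of 2, and mastl, with 0 counts in every miR-150 library, lies alone at the bottom (0 drawn at 0.05).

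Genes that start mitosis and control the sorting of chromosomes made up 9 of the 36. CDK1 (ENSDARG00000087554), the kinase that drives entry into mitosis, was at 31.9, 32.3 and 36.4 CPM in the controls and 8.59, 0 and 6.80 CPM in the miR-150 libraries. Its controls lay within 1.14 times of each other, and miR-150 replicate 2 had 0 counts. mastl (ENSDARG00000055566), the Greatwall kinase that keeps the phosphatase opposing CDK1 shut off, had 275, 291 and 237 counts in the controls and none in any of the miR-150 libraries. In CPM its controls were at 13.4, 22.4 and 13.7, and the smallest was at least 74.1-fold higher than what 3 counts stand for in the shallowest miR-150 library. It was the only member at 0 in every library of a group. aurka (ENSDARG00000012485), the kinase of spindle poles, stood at 18.1, 9.02 and 7.56 CPM against 2.13, 0 and 0 CPM, with 37 counts in miR-150 replicate 1 and none in the other miR-150 libraries.

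The spindle checkpoint and its targets gave 3 members, and the passenger complex 1. TTK (ENSDARG00000041361), the kinase that starts spindle checkpoint signalling, was at 11.7, 15.6 and 27.2 CPM in controls and 5.01, 0.181 and 0.722 CPM in miR-150 libraries. bub1ba (ENSDARG00000078825), which encodes the checkpoint protein BubR1, was at 6.57, 6.55 and 5.42 CPM and 2.13, 1.67 and 0 CPM and was the least abundant of the 36. CDC20 (ENSDARG00000100741), the activator of the anaphase-promoting complex that the checkpoint restrains, was at 12.6, 14.3 and 15.3 CPM and 3.52, 0.813 and 4.63 CPM. For CDC20 the largest of the miR-150 levels was in replicate 3, the one exception among the 21 division genes other than mastl. cdca8 (ENSDARG00000043137), the borealin subunit of the chromosomal passenger complex, was at 11.04, 24.9 and 15.2 CPM and 3.34, 0.632 and 1.93 CPM.

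Condensin, the ring complex that compacts chromosomes, had 2 subunits among the 36. SMC2 (ENSDARG00000017744), the ATPase arm shared by both condensins, was at 50.4, 45.8 and 52.3 CPM in the controls and 20.9, 1.26 and 0.181 CPM in the miR-150 libraries. The 3 controls agreed within 1.14 times, whereas miR-150 replicate 1 kept 42.3% of the control mean and replicate 3 kept 0.365%, or 3 counts. NCAPG (ENSDARG00000070109), a subunit of condensin I, was at 49.1, 59.3 and 33.4 CPM and 14.8, 1.17 and 3.67 CPM. Of the remaining 6 condensin subunits, looked up after the members were known, 5 were lower without overlap, where 8.92% of all genes tested were. These were NCAPD2, SMC4, NCAPD3, NCAPG2 and ncaph2, and NCAPH overlapped. NCAPD2, for example, was at 70.5, 41.4 and 43.2 CPM against 31.1, 3.21 and 12.5 CPM. ncaph2 met the ratio, with its smallest control 3.57 times its largest miR-150 library, but its smallest control was at 3.87 CPM.

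**Figure D2:**
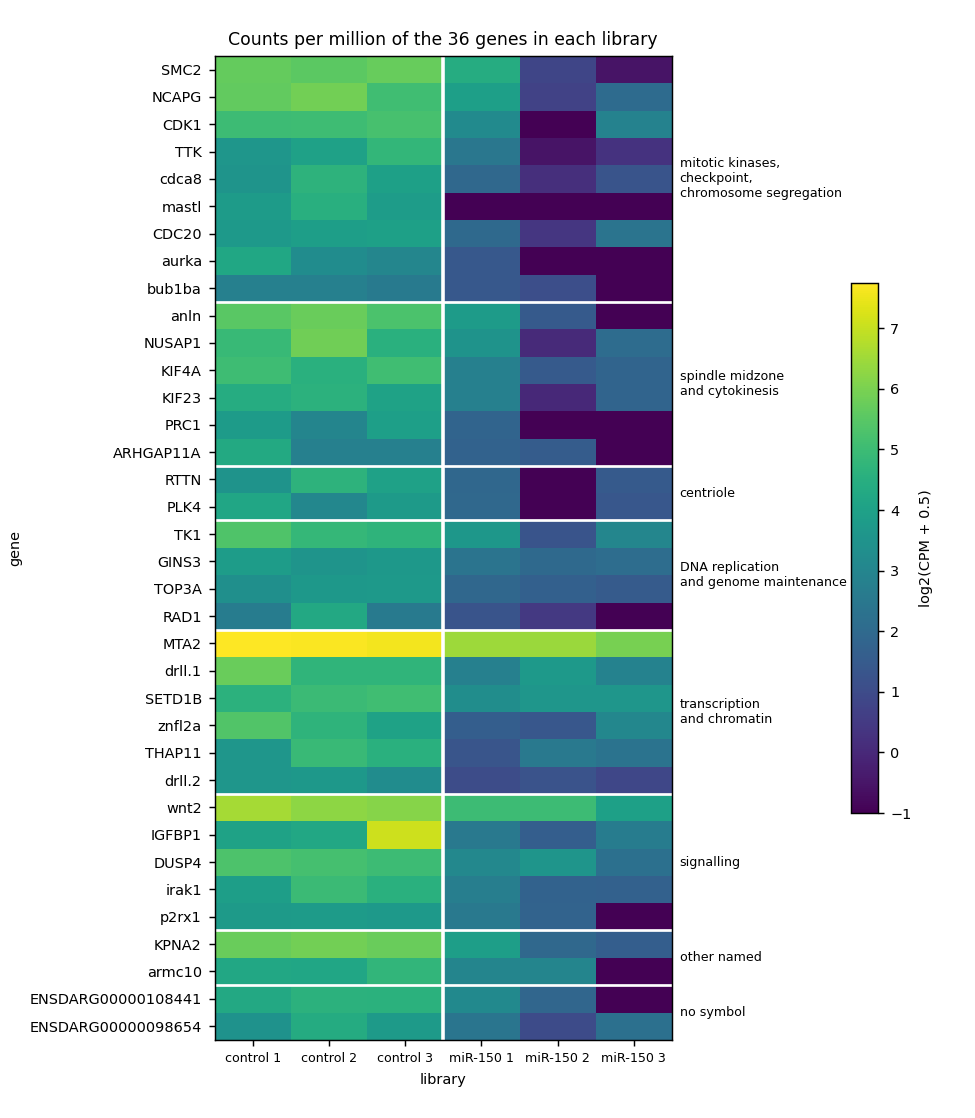
Level of each of the 36 genes in each library as log2(CPM + 0.5), grouped by role, with control libraries left and miR-150 libraries right of the white line. The darkest cells, at 0 counts, are mostly division genes in miR-150 replicates 2 and 3, and MTA2 is the brightest row in all 6 libraries.

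The midzone of the spindle and the cleavage furrow accounted for 6 members. anln (ENSDARG00000060917), the anillin scaffold of the contractile ring, was at 45.5, 52.8 and 38.4 CPM in controls and 13.4, 2.30 and 0 CPM in miR-150 libraries. KIF4A (ENSDARG00000005462), a motor that organises the midzone, was at 32.1, 22.97 and 33.2 CPM against 6.57, 2.30 and 3.07 CPM. KIF23 (ENSDARG00000014943), the motor of the centralspindlin complex, was at 21.1, 23.97 and 15.9 CPM against 6.45, 0.497 and 3.07 CPM. All 6 genes had their largest miR-150 level in replicate 1. NUSAP1 (ENSDARG00000002403), which bundles spindle microtubules, was at 28.99, 57.6 and 23.3 CPM and 10.8, 0.542 and 3.73 CPM. PRC1 (ENSDARG00000005993), the cross-linker of midzone microtubules, was at 13.6, 7.32 and 14.8 CPM against 3, 0 and 0 CPM. A second identifier with the symbol PRC1 was not a member and was at 12.4, 14.6 and 15.8 CPM against 8.07, 1.72 and 0 CPM. How reads shared between these identifiers were counted is not given in the sources used here. ARHGAP11A (ENSDARG00000100019), a GTPase-activating protein for RhoA, was at 19.6, 6.55 and 6.52 CPM and 2.88, 2.39 and 0 CPM, and control replicate 1 stood 3.01 times above the smallest control.

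Partners of these proteins, looked up once the members were known, were mixed. RACGAP1, the partner of KIF23 in centralspindlin, was at 7.68, 12.03 and 9.64 CPM in controls and 8.13, 0.632 and 3.25 CPM in miR-150 libraries, and the groups overlapped. ECT2, the exchange factor that centralspindlin recruits, was at 9.53, 9.56 and 21 CPM against 5.82, 1.94 and 0.0602 CPM with no overlap. AURKB, the kinase of the passenger complex that holds cdca8, was at 29.9, 28.98 and 16.8 CPM against 11.4, 2.39 and 17.2 CPM and overlapped. Leaving out the members, whose groups cannot overlap by the rule, 2 of 4 midzone identifiers and 3 of 5 spindle checkpoint genes were lower without overlap, where 8.92% of all genes tested were.

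Both centriole members were absent from miR-150 replicate 2. PLK4 (ENSDARG00000004576), the kinase that sets off centriole duplication, was at 17.8, 7.86 and 13.2 CPM in the controls and 3.34, 0 and 2.11 CPM in the miR-150 libraries. RTTN (ENSDARG00000004131), a rotatin needed to build full-length centrioles, was at 10.8, 24.8 and 15.8 CPM against 3.28, 0 and 2.29 CPM.

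DNA replication and repair supplied 4 members, with medians of 33.0%, 15.9% and 22.3% of the control mean in miR-150 replicates 1, 2 and 3. TK1 (ENSDARG00000102245), the thymidine kinase of S phase, was at 39.7, 27.8 and 25.3 CPM in controls and 11.9, 1.90 and 7.52 CPM in miR-150 libraries. GINS3 (ENSDARG00000038847), a subunit of the replicative helicase, was at 13.7, 10.9 and 12.1 CPM against 4.61, 3.43 and 3.85 CPM, and TOP3A (ENSDARG00000052827), a topoisomerase that resolves joined DNA molecules, at 9.68, 12.3 and 12.8 CPM against 3.28, 2.71 and 2.35 CPM. Neither had 0 counts in any library. RAD1 (ENSDARG00000040559), part of the ring clamp that signals DNA damage, was at 5.93, 19.1 and 5.65 CPM and 1.90, 0.858 and 0 CPM, with control replicate 2 apart from the other controls. GINS1, GINS2 and GINS4 overlapped between the groups, as did the RAD1 partners rad9a and HUS1.

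**Figure D3:**
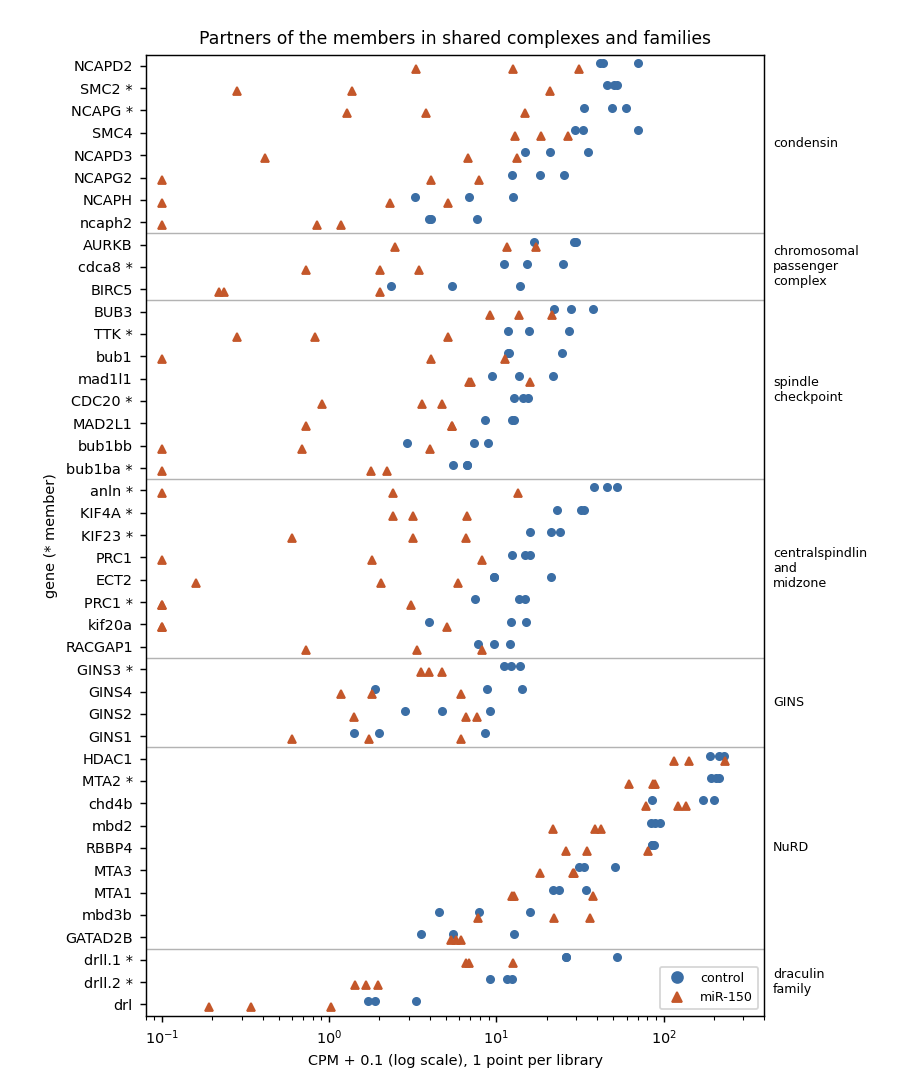
CPM + 0.1 on a log scale for genes of complexes and families that hold a member (marked with a star), 1 point per library, blue circles for controls and orange triangles for miR-150 libraries. Most condensin, checkpoint and midzone genes lie further left in miR-150 libraries, while NCAPH, RACGAP1, AURKB, GINS1, GINS2, GINS4, HDAC1 and mbd3b are among those that overlap.

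A list of cell cycle genes, chosen with earlier results of these data known, was read in the same libraries as a description. Its 35 symbols matched 36 identifiers, of which 33 were tested and 7 were members. The 7 members cannot overlap by the rule. Of the 33, 17 (51.5%) were lower in every miR-150 library than in every control and 0 were higher, against 8.92% lower and 5.71% higher over all 15722 genes tested. Without the 7 members 10 of 26 were lower. The median log2 fold change of the list, miR-150 over control, was -1.33 (median over all genes 0.04), and -0.99 without the members. Summed without the members, the list was at 2377, 2064 and 2082 CPM in control replicates 1, 2 and 3 and at 2119.7, 1139 and 890.3 CPM in miR-150 replicates 1, 2 and 3, so that in replicate 1 it lay within the controls. With miR-150 replicates 2 and 3 left out, 18 of the 33 list genes lay lower in miR-150 replicate 1 than in every control. Without the 7 members, which the rule makes lower, these were 11 of 26, where 17.3% of all genes lay lower. Of the 33, 6 lay higher, and the share of all genes that lay higher is not given here. With levels taken relative to the thrombocyte marker list 8 of the 33 were lower. Without the members these were 4 of 26, against 2.35% of all genes.

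Among the genes of that list outside the 36, mki67, the proliferation marker of the mitotic chromosome surface, was at 96.8, 169.7 and 167 CPM in the controls and 56.7, 6.14 and 14.9 CPM in the miR-150 libraries. TOP2A, which untangles sister chromatids, was at 37.6, 43.6 and 90.6 CPM against 20.3, 1.35 and 0.0602 CPM. plk1, a kinase of mitotic entry, was at 29.5, 31.5 and 34.2 CPM against 18.96, 2.39 and 12.8 CPM. None of these 3 overlapped, and none reached a ratio of 2. PCNA, the sliding clamp of the replication fork, was at 329, 193 and 196 CPM against 157, 60.04 and 121 CPM, also without overlap. AURKB and the motor gene kif11 overlapped, as did the helicase subunits MCM2, MCM3 and MCM5, and MCM5 was at 41.7, 50.7 and 47.4 CPM in controls and 101, 30.9 and 82.4 CPM in miR-150 libraries, higher in replicates 1 and 3 than in any control.

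Among the members, the size of the difference varied with the miR-150 library, and between the roles mainly in replicate 2. The rule caps every miR-150 level of a member, and roles were assigned once the members were named. KPNA2, which is abundant in dividing cells, was counted outside the division genes. The medians by role are therefore a description, given without a test. Over the 21 division genes the median level was 26.5%, 2.55% and 10.2% of the control mean in miR-150 replicates 1, 2 and 3. Over the other 15 members it was 27.2%, 22.4% and 12.2%. For all 7528 genes with at least 5 CPM in every control it was 97.1%, 74.7% and 56.0%. Replicate 1 held the largest miR-150 level in 20 of the 21 division genes, counting mastl with its 3 equal values, in 7 of the other 15, and in 55.1% of the 7528. Zero counts occurred in 1, 6 and 7 of the 21 division genes in miR-150 replicates 1, 2 and 3, and in 0, 0 and 3 of the other 15. They occurred in 3, 20 and 211 of the 7528, so that replicate 3 had by far the most genes at 0. Among controls, the largest level was in replicate 1, 2 and 3 for 6, 8 and 7 of the division genes, and the median coefficient of variation among controls was 27.6% in the division genes, 16.8% in the other members and 26.9% in all 7528.

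**Figure D4:**
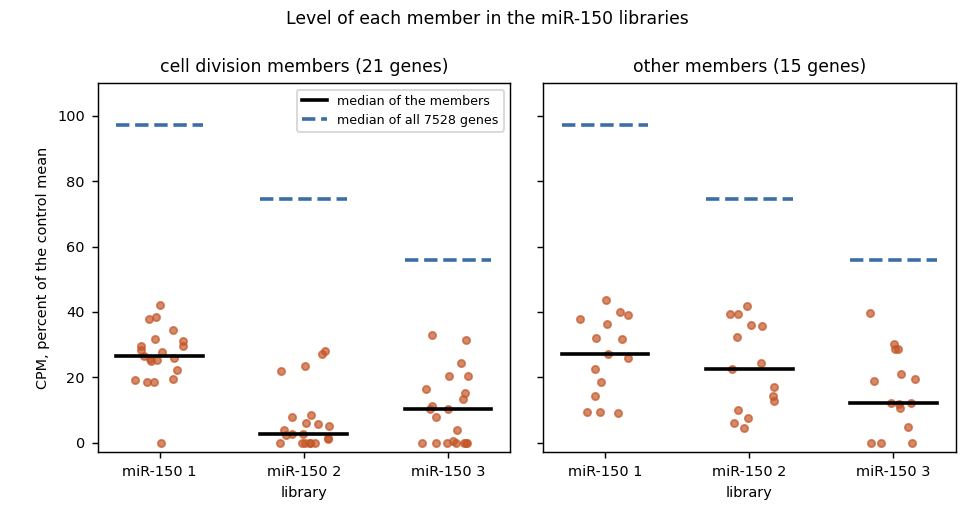
CPM in each miR-150 library as a percentage of the control mean, 1 point per gene, for the 21 division genes and the other 15 members, with the median of the members (black) and of all 7528 genes (dashed). Division genes sit at a median of 2.55% in miR-150 replicate 2, where the other members sit at 22.4%.

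Transcription and chromatin genes formed 6 of the other 15. MTA2 (ENSDARG00000013031), a subunit of the NuRD complex that couples histone deacetylation to nucleosome remodelling, was at 215, 206 and 192 CPM in the controls and 89.2, 85.8 and 61.7 CPM in the miR-150 libraries. It had the highest level of the 36, with 1025 counts in its lowest library, and its group means were 205 ± 11.5 and 78.9 ± 15.01 CPM (SD, n = 3 each). mbd2, whose product binds methylated DNA in NuRD, was at 94.7, 83.4 and 88.1 CPM against 38.5, 42.3 and 21.7 CPM and missed the ratio narrowly. Of the 8 NuRD genes tested besides MTA2, 3 were lower without overlap, namely mbd2, RBBP4 and MTA3, where 8.92% of all genes tested were. HDAC1, MTA1, chd4b and mbd3b overlapped between the groups, and HDAC1 was at 188, 228 and 215 CPM against 232, 115 and 141 CPM.

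SETD1B (ENSDARG00000060847), a histone H3 lysine methyltransferase, was at 23.9, 30.9 and 33.4 CPM in controls and 9.28, 11.6 and 11.7 CPM in miR-150 libraries. THAP11 (ENSDARG00000036055), a zinc finger transcription factor, was at 11.7, 30.3 and 23.3 CPM against 1.96, 5.33 and 4.57 CPM. znfl2a (ENSDARG00000008333), a zinc finger gene, was at 41.1, 25.2 and 16.04 CPM against 2.59, 2.08 and 7.88 CPM, and its largest miR-150 level was in replicate 3.

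The draculin family of zinc finger genes, known in zebrafish from the mesoderm that forms blood and heart, had 2 members. drll.2 (ENSDARG00000035150) was at 11.5, 12.3 and 9.06 CPM in the controls and 1.56, 1.85 and 1.32 CPM in the miR-150 libraries. Its smallest control was 4.89 times its largest miR-150 library, second only to mastl, and its level was alike in all 3 miR-150 libraries. drll.1 (ENSDARG00000035151) was at 52.8, 26.1 and 25.8 CPM against 6.51, 12.5 and 6.80 CPM, with control replicate 1 about 2.05 times above the smallest control. The founding gene drl was lower without overlap at a lower level, 3.21, 1.77 and 1.62 CPM against 0.922, 0.0903 and 0.241 CPM, and drll.3 was not tested. In the RefSeq order of protein-coding genes (assembly GRCz12tu) drll.2 and drll.1 lay 2 places apart, the only members within 5 genes of each other among the 32 that matched by name. These genes are alike in sequence family and close together, and how reads shared between them were counted is not given in the sources used here.

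Signalling genes made up 5 members. p2rx1 (ENSDARG00000016695), the ATP-gated cation channel that in mammals adds calcium entry to platelet activation, was at 13.1, 13.4 and 12.8 CPM in control replicates 1, 2 and 3 and 5.24, 2.93 and 0 CPM in miR-150 replicates 1, 2 and 3. Its controls agreed within 1.05 times, and its counts were 91, 65 and 0 in the miR-150 libraries. For both p2rx1 and itga2b, miR-150 replicate 3 was the lowest library. In miR-150 replicates 1 and 2, p2rx1 was at 40.1% and 22.4% of its control mean. There itga2b was at 5384 and 4002 CPM, within its controls of 4002 to 5727 CPM. The part of thrombocyte content in the p2rx1 level was not tested. By the rule p2rx1 cannot overlap. Of the 3 other P2X genes tested 0 were lower and 0 higher without overlap, where 8.92% and 5.71% of all genes were. Among them p2rx7 was at 57.7, 16.2 and 33.1 CPM against 36.02, 33.7 and 10.4 CPM and overlapped. In the platelet receptor signalling list p2rx1 was the only member. Of the other 24 tested identifiers 4 were lower without overlap (8.92% of all genes), 1 was higher (5.71% of all genes) and 19 overlapped. PIK3CG, the phosphoinositide kinase behind G protein-coupled receptors, was at 232, 271 and 385 CPM against 162, 139 and 38.03 CPM. LYN, a kinase of the Src family, was at 351, 309.8 and 251 CPM against 215, 203 and 39.1 CPM. SYK and lcp2a were the other lower genes. P2RY1, an ADP receptor gene, was the higher one, at 0, 0 and 0.462 CPM in controls and 0.807, 4.24 and 3.13 CPM in miR-150 libraries.

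wnt2 (ENSDARG00000041117), a secreted Wnt ligand, was the second most abundant member at 94.8, 76.8 and 70.5 CPM in controls and 31.6, 31.7 and 15.2 CPM in miR-150 libraries. DUSP4 (ENSDARG00000044688), a phosphatase that turns off MAP kinases, was at 39.5, 35.2 and 31.3 CPM against 8.01, 11.4 and 4.21 CPM. irak1 (ENSDARG00000025949), a kinase below Toll-like and interleukin-1 receptors, was at 14.3, 30.8 and 22.9 CPM against 6.17, 2.89 and 2.77 CPM. In these 3 genes no miR-150 library was at 0. IGFBP1 (ENSDARG00000099351), a secreted carrier of insulin-like growth factors made in quantity by liver, was at 15.8, 18.6 and 136 CPM against 5.30, 2.53 and 5.96 CPM. Control replicate 3 was 8.59 times above the smallest control. It was also the control with the highest hepatocyte marker sum, at 121, 926 and 6527 CPM in control replicates 1, 2 and 3. That sum was 1024, 66.6 and 285 CPM in miR-150 replicates 1, 2 and 3, an order that IGFBP1 did not follow there. The part of liver RNA in the IGFBP1 level was not tested.

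KPNA2 (ENSDARG00000038066), an importin that carries proteins into the nucleus and is abundant in dividing cells, was at 53.9, 59.4 and 53.1 CPM in the controls and 14.3, 3.34 and 2.59 CPM in the miR-150 libraries. Its group means were 55.5 ± 3.43 and 6.76 ± 6.58 CPM (SD, n = 3 each), and replicate 1 was the highest of its miR-150 libraries and replicate 3 the lowest. armc10 (ENSDARG00000062960), an armadillo-repeat gene, was at 18.3, 17.5 and 26.3 CPM against 7.49, 7.45 and 0 CPM. ENSDARG00000108441 and ENSDARG00000098654, to which the names table gives no symbol, were at 19.2, 23.97 and 23.8 and 10.6, 20.4 and 13.3 CPM in the controls, and at 8.47, 3.16 and 0 and 4.73, 1.49 and 4.21 CPM in the miR-150 libraries.

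**Figure D5:**
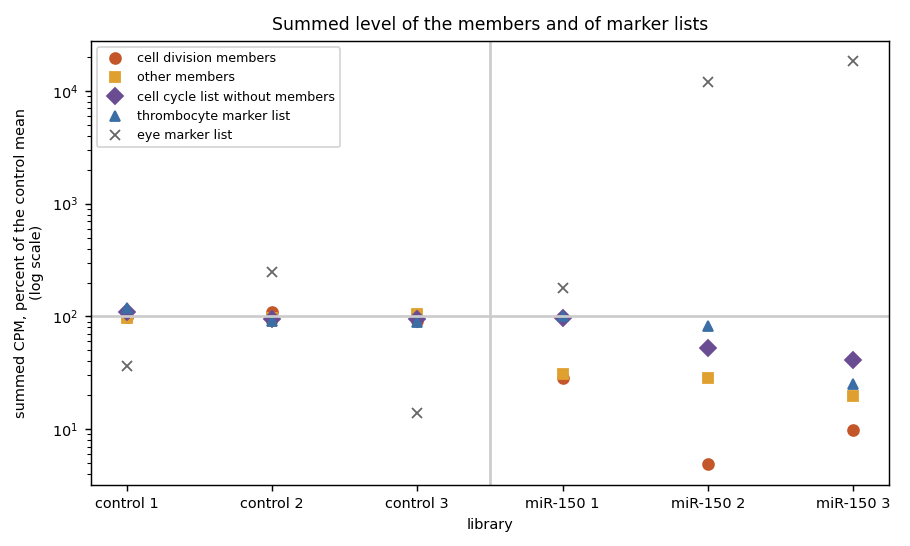
Summed CPM of each set as a percentage of its control mean (log scale), 1 symbol per set and library. The division members stand lowest in miR-150 replicates 2 and 3, the thrombocyte markers are low in replicate 3 alone, and the eye markers are high in replicates 2 and 3.

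Which genes met the rule changed with the scaling. Scaled by totals, the median log2 ratio of miR-150 to control over all genes tested was -0.14. It was 0.04 with edgeR's TMM scaling of the totals and 0.56 relative to the thrombocyte marker list. Under TMM 26 of the 36 still met the rule, among them 18 of the 21 division genes and 8 of the other 15. MTA2, wnt2, SETD1B, drll.1, znfl2a, DUSP4 and armc10 were among the 10 that did not, with RAD1, bub1ba and ARHGAP11A. Once those 114 genes were taken out of the totals, 20 of the 21 division genes and 6 of the other 15 met it. Relative to the thrombocyte markers, which were low in miR-150 replicate 3, the rule was met by 10 genes, all of them members. They were KIF4A, PRC1, aurka, SMC2, mastl, anln, NCAPG, ARHGAP11A, KPNA2 and p2rx1. The fitted log2 fold change of each of the 36 was below 0 in the edgeR fits with DESeq2 size factors, with the replicate block, with any 1 replicate left out and without miR-150 replicates 2 and 3, and in DESeq2. Members' fold changes were not recomputed under upper-quartile scaling, no filter or limma voom. That direction is fixed by the choice of genes whenever the groups do not overlap, and is no sign of stability.

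None of the 36 was in the list of reported miR-150 targets. Of its 8 tested identifiers MYB alone was lower without overlap (12.5%, where 8.92% of all genes tested were), and 0 were higher. foxp1a, another reported target, was at 73.2, 109 and 139 CPM in the controls and 85.2, 50.97 and 51.3 CPM in the miR-150 libraries, with overlap. Transcript sequences were not used here, so seed matches to miR-150 in the 36 were not examined.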

How the data were processed

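RNA of 6 sorted thrombocyte libraries had been amplified with a SMARTer ultra-low input kit and made into Nextera XT libraries, per the labels' protocols. The authors deposited raw counts per Ensembl gene; the submitters' processing notes name STAR 2.7.10b, HTSeq 0.11.3, edgeR 1.34.1 and the build GRCz11. Strand use, annotation release and duplicate handling are not given in the sources used here. Symbols came from a table that paired 29201 of the 32520 identifiers and gives some zebrafish genes in capitals.

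CPM was computed by library total, with means and SDs over n = 3. All genes were tested in R 4.3.3 with edgeR 4.0.16 (filterByExpr, TMM, glmQLFit and glmQLFTest, genotype only, Benjamini-Hochberg), the script being tested on simulated data. Alternatives used DESeq2 1.42.0 and limma 3.58.1, other scalings, thresholds and left-out libraries. Members and gene lists were chosen with earlier results of these data known; roles and complex partners were assigned once the members were named. Every member is named. P-values of the gene tests set the group difference against the spread between these libraries, and permutation p-values set it against reassigned labels. Neither measures the spread between larvae.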

Additional observations from a re-analysis of the deposited data

How the results depend on the processing

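The number of genes meeting the rule, 36, became 86 with a control minimum of 1 CPM, 145 with a ratio of 1.5 and 8 with a ratio of 3. It became 10 relative to the thrombocyte marker list and 165 without miR-150 replicates 2 and 3, both chosen after seeing the data. Leaving out 1 replicate, which can only raise the count, gave 56 to 268. With TMM, DESeq2 size factors, totals without the 50 most counted genes or without the raised genes, or a minimum of 10 CPM, it stayed within 26 to 47. The 17 lower cell cycle genes of 33 became 8 relative to the thrombocyte markers, and 17 to 25 with 1 replicate left out. Without the members, which the same contrast chose, the 10 of 26 became 4, and 10 to 18 with 1 replicate left out. The share of all genes tested that was lower moved as well. It was 8.92% in the main setting, 2.35% relative to the markers and 11.3% to 21.7% with 1 replicate left out.

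In the test over all genes edgeR called 0 under each scaling, without a filter, with the replicate block and with any replicate left out (0 to 0), and limma voom called 0. DESeq2 called 254; the cause was not tested. Libraries that share a number deviated from their group's mean with correlations of -0.192, -0.1 and -0.038 (replicates 1, 2 and 3), and 0 libraries correlated best with their own number, so the numbers were not taken as pairs; under the block 552 genes had an unadjusted p below 0.05, against 855. The log2 fold change of itga2b, -0.30, reversed to 0.031 without control replicate 1, 0.11 without miR-150 replicate 3 and 0.099 without miR-150 replicates 2 and 3, and ranged from -0.58 to 0.11 with 1 replicate left out. Of the 36 members, 10 were past the threshold under DESeq2 and 0 under the edgeR fits. A level of 0 means 0 counts, and is read only as below the floor of 3 counts, or 0.135 to 0.181 CPM in a miR-150 library.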

Other observations

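These lists held none of the 36 genes and are given as counts of genes lower and higher in every miR-150 library than in every control. Nuclear genes of oxidative phosphorylation were lower in 0 and higher in 17 of 103 tested (16.5%, where 5.71% of all genes were higher). Their median level was 107%, 102% and 246% of the control mean in miR-150 replicates 1, 2 and 3, so replicate 3 stood apart. Cytosolic ribosomal protein genes were lower in 0 and higher in 0 of 82, and mitochondrially encoded genes in 0 and 0 of 13. In both sets 0 genes had a fitted log2 fold change below 0, with medians of 1.02 and 0.96. The ribosomal set summed to 17301, 16082 and 15601 CPM in control replicates 1, 2 and 3. In miR-150 replicates 1, 2 and 3 it summed to 12543, 16951 and 45650 CPM. The mitochondrial set was at a median of 164%, 67.2% and 240% of the control mean in those miR-150 libraries. Heat shock and unfolded protein genes were lower in 7 of 23 (30.4%, where 8.92% of all genes were lower) and higher in 0. Cytoskeletal genes of proplatelets were lower in 4 and higher in 1 of 19, interferon response genes lower in 2 and higher in 1 of 10, granule genes lower in 1 and higher in 1 of 16, immediate early genes lower in 1 and higher in 0 of 18, and small RNA pathway genes lower in 0 and higher in 1 of 12.

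For the cell type lists the shares to compare with are those of all genes tested, 8.92% lower and 5.71% higher. Thrombocyte markers were lower in 3 and higher in 1 of 14 tested, with a median log2 fold change of -0.44. Progenitor markers were lower in 2 and higher in 0 of 6. Eye markers were higher in 2 of 10 and lower in 0, neural markers higher in 2 and lower in 1 of 10, and myeloid markers lower in 1 and higher in 0 of 9. A single gene was higher and 0 lower in each of the erythroid (12 tested), epidermis (18), endothelial (11) and kidney tubule (3) lists. Hepatocyte (12 tested), skeletal muscle (12), lymphoid (1), cartilage and notochord (6), and exocrine pancreas and gut (13) lists had 0 genes without overlap in either direction. Their median log2 fold changes were -3.59, 0.35, 2.40, 0.24 and 2.36, in that order, so no overlap count of 0 does not mean equal levels.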
